A study of Solanum lycopersicum with 8 samples.

Results

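Proteinase inhibitors I and II are small proteins that block serine proteases. In tomato and its relatives they are textbook markers of wounding: chewing damage releases the peptide systemin, jasmonate is made, and leaves accumulate both inhibitors, which slow the digestive proteases of insects. Genes of both classes are also known to be expressed in flowers and flower buds of this family without any wound, so their RNA can mark floral tissue as well as injury.

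The 8 genes described here were taken by gene ID from the 34109 genes of the deposited table. Of these, 5 belong to inhibitor II, with IDs on chromosome 3 (Solyc03g020030, Solyc03g020040, Solyc03g020050, Solyc03g020060 and Solyc03g020080), and 3 belong to inhibitor I, with IDs on chromosome 9 (Solyc09g084470, Solyc09g084480 and Solyc09g084490). The class of each ID comes from general knowledge of tomato genes. None of them was matched in RefSeq (assembly SLM_r2.1), whose table has 0 IDs of this form.

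RNA was sequenced from inflorescence meristems of 8-week-old plants of 2 genotypes, with 4 libraries each: *plt3* *plt7*, which carries CRISPR-Cas9 coding mutations in a pair of *PLETHORA* transcription factor genes, and *ej2* *j2*, which carries mutations in a pair of *SEPALLATA* MADS-box genes. Cultivar M82 is the wild-type line of the study. The paper states that meristems were collected under magnification from 4 plants, without saying whether this is per genotype. No wild-type library was used here. The values are TPM, a share of all transcripts in a library scaled for transcript length, which means that levels of different genes can be compared within a library. TPM holds no read numbers, so depth is unknown and no counting error can be given. Differences are *plt3* *plt7* minus *ej2* *j2* in mean log2(TPM + 1), and the added 1 shrinks the differences of genes with values near 0. They were tested with limma over 19544 genes whose mean reached 1 TPM, and a gene was called at a Benjamini-Hochberg adjusted p under 0.05.

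Across all genes, 1.84% were called, 0.875% as higher in *plt3* *plt7* and 0.962% as lower. Between 21479 and 22295 genes were above 0 in each *plt3* *plt7* library, against 21397 to 22792 in each *ej2* *j2* library. The 10 highest genes held 4.14% to 5.66% of the total in *plt3* *plt7* libraries and 4.52% to 10.7% in *ej2* *j2* libraries, with the top value in *ej2* *j2* replicate 2. The inflorescence meristem list holds 8 IDs from general knowledge, chosen with earlier results of these data known. It summed to 262 to 874 TPM in *plt3* *plt7* and 361 to 1055 TPM in *ej2* *j2*. Of the 8, all tested, 1 was called as lower in *plt3* *plt7*, against 0.962% of all genes, and none as higher. The gene called, Solyc02g081670, was listed at 0 in all 4 *plt3* *plt7* libraries (log2 difference -2.16, adjusted p = 0.0242, limma). Differences were below 0 for 6, with a median of -1.38 against 0.05 over all genes. Libraries did not overlap for 2, both lower in *plt3* *plt7*, against 3% of all genes. Because whole dissected tissue was sequenced, fewer cells of a type and less RNA per cell cannot be told apart in any value below.

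The 2 inhibitor genes that passed the test differed in opposite directions between the genotypes, 1 in each class. All 3 inhibitor I genes had lower means in *plt3* *plt7*, and Solyc09g084490 passed the test. The most abundant inhibitor II gene, Solyc03g020040, was higher in *plt3* *plt7* and also passed. Of the 8 genes, 7 reached the minimum level and were tested, and 2 of these (28.6%) were called, 1 higher and 1 lower, against 1.84% of all genes. A further 2 had an unadjusted p under 0.05 and missed the adjusted threshold (limma). The genes were chosen with earlier results of these data known. Shares set beside those of all genes, here and below, are therefore descriptions only.

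**Figure D1:**
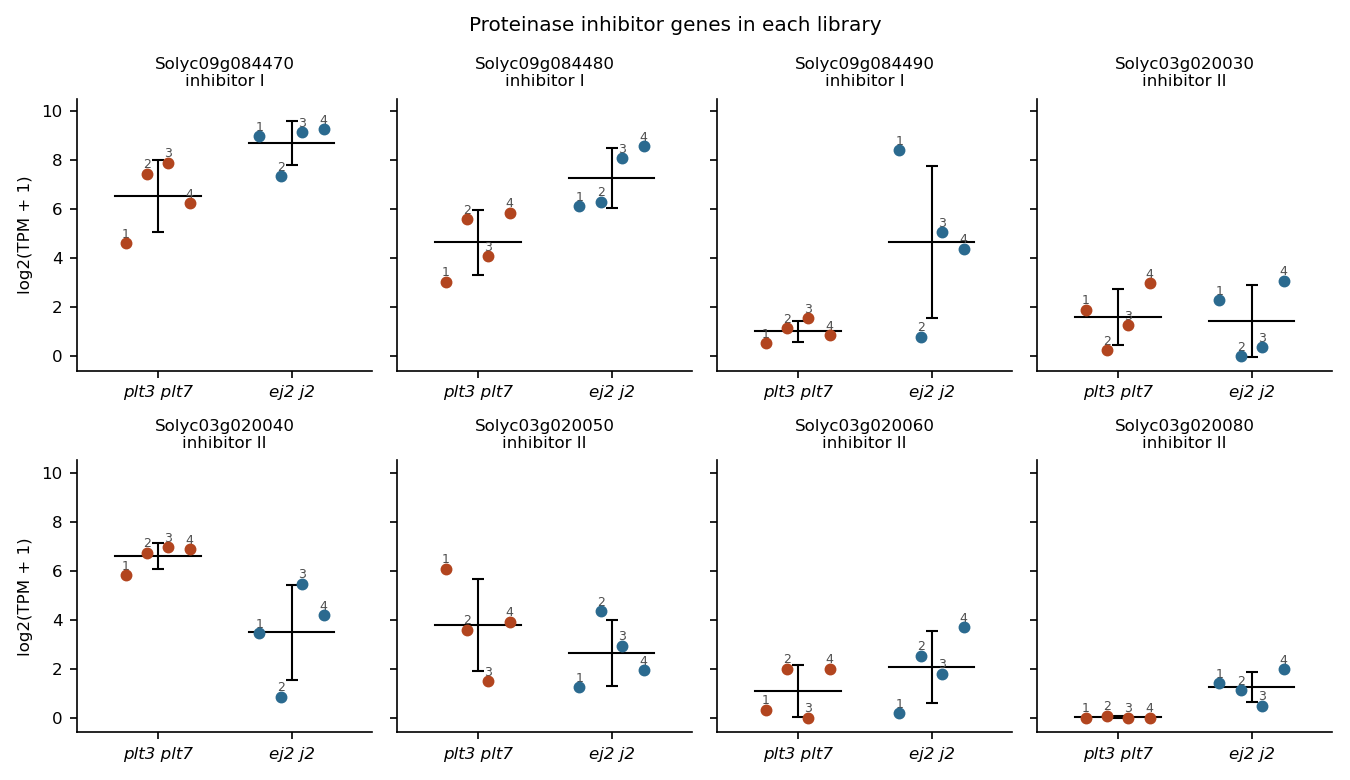
Level of each of the 8 inhibitor genes, as log2(TPM + 1), in the 4 *plt3* *plt7* libraries (left in each panel) and the 4 *ej2* *j2* libraries (right), with the replicate number above each point, the mean as a line and the SD as a bar. Solyc09g084480 and, at values near 0, Solyc03g020080 lie wholly lower in *plt3* *plt7*, and Solyc03g020040 lies wholly higher. Solyc09g084490 spans 0.744 to 336 TPM among the *ej2* *j2* libraries.

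Solyc09g084470 was the most abundant of the inhibitor I genes in all 8 libraries. It stood at 23.3, 173, 236 and 75.0 TPM in *plt3* *plt7* replicates 1 to 4, against 508, 162, 563 and 613 TPM in *ej2* *j2* replicates 1 to 4. In *ej2* *j2* replicates 1, 3 and 4 it exceeded every *plt3* *plt7* library, whereas *ej2* *j2* replicate 2 fell inside the *plt3* *plt7* range, so the groups overlapped. It exceeded 61.5% to 96.3% of all genes tested in *plt3* *plt7* libraries and 94.1% to 99.2% in *ej2* *j2* libraries. The mean was 127 ± 95.9 TPM in *plt3* *plt7* and 462 ± 204 TPM in *ej2* *j2* (SD, n = 4 each), 3.63 times lower in *plt3* *plt7*. The log2 difference was -2.14 (95% interval -3.95 to -0.33), which did not pass the test (adjusted p = 0.245, limma). By the two-sided exact permutation of the 8 libraries, p was 0.0857.

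Solyc09g084480 was the next inhibitor I gene by mean in both genotypes. It stood at 7.27, 47.5, 15.9 and 56.9 TPM in *plt3* *plt7*, against 68.6, 77.7, 269.9 and 376 TPM in *ej2* *j2*. The genotypes did not overlap: the highest *plt3* *plt7* library lay below the lowest *ej2* *j2* library. Its mean was 31.9 ± 24.0 TPM in *plt3* *plt7* and 198 ± 151 TPM in *ej2* *j2* (SD, n = 4 each). The log2 difference of -2.62 (95% interval -4.41 to -0.83) missed the threshold over all genes (adjusted p = 0.110, limma). The exact permutation p was 0.0286, the smallest that 4 libraries against 4 allow.

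Solyc09g084490 had the largest log2 difference in size of the 8 genes, -3.64 (SE 0.83, 95% interval -5.27 to -2.00, adjusted p = 0.00426, limma). It was low in all 4 *plt3* *plt7* libraries, at 0.458, 1.20, 1.92 and 0.805 TPM. In *ej2* *j2* it was at 336, 0.744, 32.2 and 19.9 TPM. Replicates 1, 3 and 4 of *ej2* *j2* were therefore far above every *plt3* *plt7* library, and replicate 2 was not. The means were 1.10 ± 0.629 TPM in *plt3* *plt7* and 97.2 ± 160 TPM in *ej2* *j2* (SD, n = 4 each), and the *ej2* *j2* SD exceeded its mean. The exact two-sided permutation test, which uses only the spread of this gene, gave p = 0.114. Without *ej2* *j2* replicate 1 the log2 difference was -2.39 and the call was lost (adjusted p = 0.104, limma). Leaving out *ej2* *j2* replicate 2 gave -4.93 (adjusted p = 2.17e-04, limma).

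The 3 inhibitor I genes together summed to 31.0, 222, 254 and 133 TPM in *plt3* *plt7*, against 912, 241, 866 and 1009 TPM in *ej2* *j2*. *ej2* *j2* replicate 2 was again the low library of its genotype for the sum and lay within the *plt3* *plt7* range. The mean sum was 160 ± 100.2 TPM in *plt3* *plt7* and 757 ± 349 TPM in *ej2* *j2* (SD, n = 4 each), 4.73 times lower in *plt3* *plt7*. Solyc09g084470 made up 56.5% to 93.0% of the sum in *plt3* *plt7* libraries and 55.7% to 67.4% in *ej2* *j2* libraries.

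Solyc03g020040 was the largest part of inhibitor II in 3 of the 4 libraries of each genotype. This gene stood at 55.5, 106, 123 and 117 TPM in *plt3* *plt7*, against 9.99, 0.813, 43.1 and 17.1 TPM in *ej2* *j2*. Every *plt3* *plt7* library was above every *ej2* *j2* library. The mean was 100.4 ± 30.7 TPM in *plt3* *plt7* and 17.8 ± 18.2 TPM in *ej2* *j2* (SD, n = 4 each), 5.65 times higher in *plt3* *plt7*. The log2 difference was 3.11 (SE 0.90, 95% interval 1.33 to 4.89, adjusted p = 0.0409, limma), and the exact permutation p was 0.0286. The call lay close to the threshold: it was lost without any one of the libraries other than *ej2* *j2* replicate 3 (adjusted p = 0.0275 to 0.225 over the 8 omissions, limma), and the log2 difference was lowest, at 2.23, without *ej2* *j2* replicate 2.

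Solyc03g020050 was the other inhibitor II gene that exceeded 10 TPM in several libraries. It stood at 66.8, 11.1, 1.80 and 14.1 TPM in *plt3* *plt7*, against 1.38, 19.5, 6.66 and 2.84 TPM in *ej2* *j2*. The ranges overlapped almost throughout, and *plt3* *plt7* replicate 1 was the highest library. Its log2 difference of 1.15 (95% interval -0.53 to 2.83) did not pass the test (adjusted p = 0.607, limma), and without *plt3* *plt7* replicate 1 it was 0.38.

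The remaining inhibitor II genes were low. Solyc03g020030 stood at 2.72, 0.178, 1.40 and 6.92 TPM in *plt3* *plt7*, against 3.84, 0, 0.301 and 7.44 TPM in *ej2* *j2*. The ranges coincided closely, and the log2 difference was 0.16 (95% interval -1.11 to 1.43, adjusted p = 0.955, limma). Solyc03g020060 stood at 0.251, 2.99, 0 and 3.01 TPM in *plt3* *plt7*, against 0.145, 4.78, 2.48 and 12.0 TPM in *ej2* *j2*. Its log2 difference was -0.98 (95% interval -2.26 to 0.31, adjusted p = 0.545, limma). Both intervals are wide and include 0, so neither a rise nor a fall of these genes was detectable.

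Solyc03g020080 was the gene left untested, since its mean was under 1 TPM. It was listed at 0, 0.0644, 0 and 0 TPM in *plt3* *plt7*, against 1.64, 1.19, 0.401 and 2.92 TPM in *ej2* *j2*. The genotypes did not overlap, with a difference of -1.23 in mean log2(TPM + 1) (exact two-sided permutation test, p = 0.0286). Within the same class, therefore, Solyc03g020040 and Solyc03g020080 separated the genotypes in opposite directions, the abundant gene higher in *plt3* *plt7* and this scarce one lower.

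Summed over its 5 genes, inhibitor II reached 125, 120.0, 126 and 142 TPM in *plt3* *plt7*, against 17.0, 26.2, 53.0 and 42.4 TPM in *ej2* *j2*. The genotypes did not overlap in this sum, whose mean was 128 ± 9.27 TPM in *plt3* *plt7* and 34.6 ± 16.1 TPM in *ej2* *j2* (SD, n = 4 each), 3.70 times higher in *plt3* *plt7*. The *plt3* *plt7* sums were alike although their makeup was not: Solyc03g020040 was the largest part in replicates 2, 3 and 4, at 83.0% to 97.5%, and Solyc03g020050 in replicate 1, at 53.3%. In *ej2* *j2*, Solyc03g020040 was the largest part in replicates 1, 3 and 4, at 58.8%, 81.4% and 40.4%, and Solyc03g020050 in replicate 2, at 74.2%. The sums are descriptions and were not tested.

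**Figure D2:**
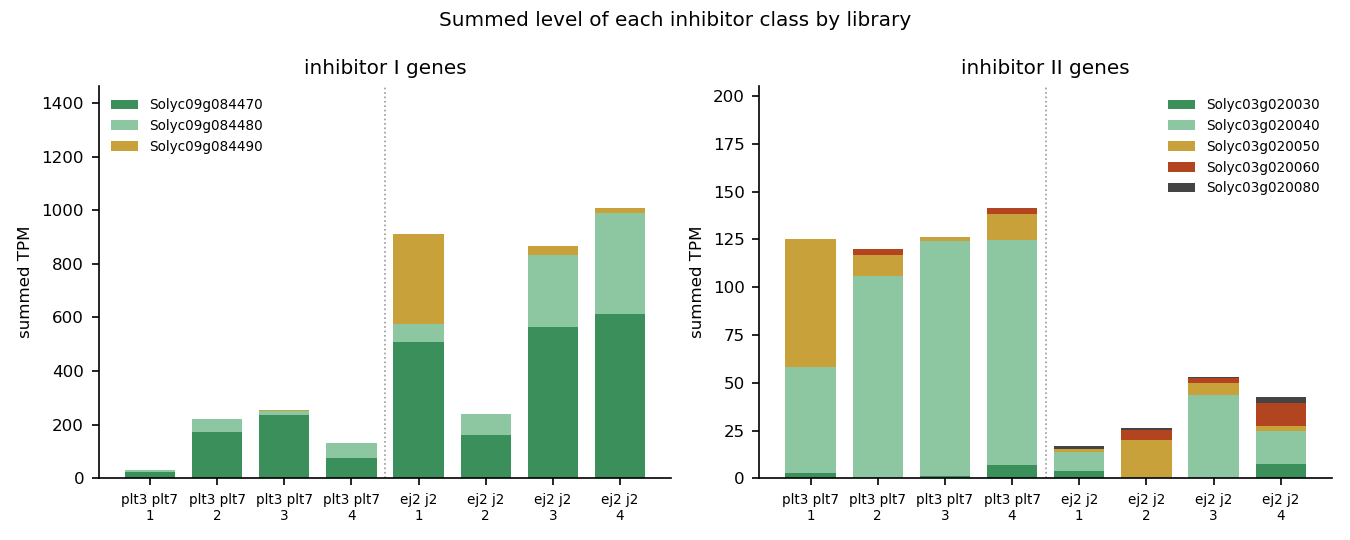
Summed TPM of the 3 inhibitor I genes (left) and the 5 inhibitor II genes (right) in each library, stacked by gene, with *plt3* *plt7* replicates 1 to 4 before *ej2* *j2* replicates 1 to 4 and a separate vertical scale for each class. Inhibitor I sums to 31.0 to 254 TPM in *plt3* *plt7* and 241 to 1009 TPM in *ej2* *j2*, and inhibitor II to 120.0 to 142 TPM in *plt3* *plt7* and 17.0 to 53.0 TPM in *ej2* *j2*.

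The order of mean levels also differed between the genotypes. In *plt3* *plt7* it ran Solyc09g084470, Solyc03g020040, Solyc09g084480, Solyc03g020050, Solyc03g020030, Solyc03g020060, Solyc09g084490 and Solyc03g020080, and the first pair, at 127 ± 95.9 and 100.4 ± 30.7 TPM, differed by less than their spread. In *ej2* *j2* the 3 inhibitor I genes came first, at 462, 198 and 97.2 TPM, followed by Solyc03g020040 at 17.8 TPM, Solyc03g020050 at 7.58 TPM, Solyc03g020060 at 4.86 TPM, Solyc03g020030 at 2.89 TPM and Solyc03g020080 at 1.54 TPM. From Solyc09g084480 downwards, each neighbouring pair in the *ej2* *j2* order differed by less than the larger of its SDs. Of the 8 genes, 5 were above 0 in every library. The median log2 difference was -2.62 over the 3 inhibitor I genes and 0.65 over the 4 inhibitor II genes tested, beside 0.05 over all genes.

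**Figure D3:**
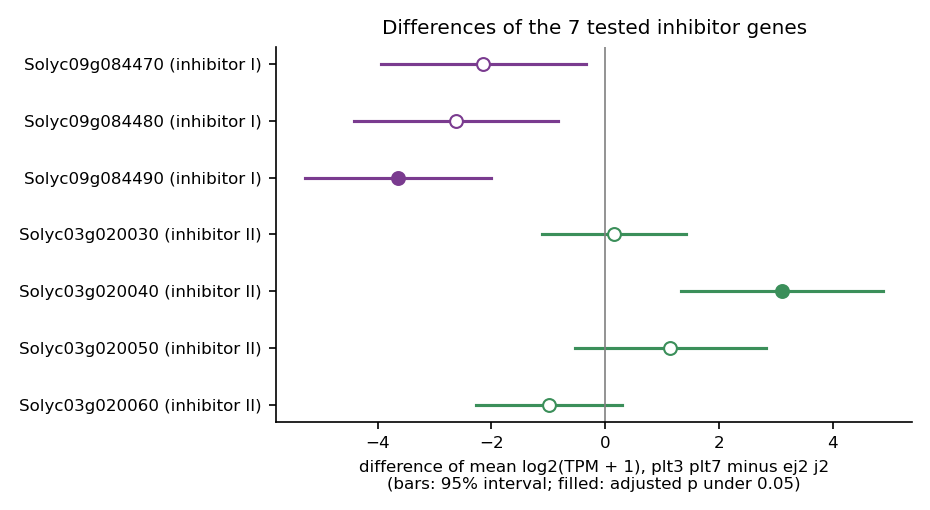
Difference of mean log2(TPM + 1), *plt3* *plt7* minus *ej2* *j2*, for the 7 tested genes, with 95% intervals from limma and filled points for adjusted p under 0.05. The inhibitor I points lie at -2.14, -2.62 and -3.64, and the inhibitor II points run from -0.98 to 3.11.

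Counted by overlap, 6.87% of all genes had libraries that did not overlap between the genotypes, 3.87% with *plt3* *plt7* higher and 3% with *plt3* *plt7* lower. Among the 7 tested inhibitor genes this held for 2 (28.6%), Solyc03g020040 as higher and Solyc09g084480 as lower. Only the first of these was also called. Solyc09g084490 was called although its libraries overlapped, through the low *ej2* *j2* replicate 2. Replicate 2 was also the lowest *ej2* *j2* library for Solyc03g020030, Solyc03g020040 and Solyc09g084470, and the highest for Solyc03g020050.

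Other genes of the inhibitor I family were next compared, using 17 IDs listed from general knowledge. Of these, 11 were in the table and 9 were tested. Of the 9, 2 were called as lower in *plt3* *plt7*, against 0.962% of all genes, and none was called as higher. This list was also chosen with earlier results of these data known, so its shares are descriptions only. Differences were below 0 for 7 of the 9, against 9381 of 19544 over all genes, with a median of -1.73 against 0.05. Solyc09g089530 was the most abundant, at 23.9, 16.2, 187 and 3.70 TPM in *plt3* *plt7*, against 1150, 30.2, 113 and 558 TPM in *ej2* *j2* (log2 difference -3.14, adjusted p = 0.0464, limma). Solyc09g084450 was lower too, at 0, 0.519, 2.04 and 0 TPM in *plt3* *plt7*, against 15.5, 1.35, 8.71 and 4.75 TPM in *ej2* *j2* (log2 difference -2.22, adjusted p = 0.0487, limma). The libraries of both genes overlapped between genotypes, and *ej2* *j2* replicate 2 was the lowest of its genotype in each, as for Solyc09g084470 and Solyc09g084490.

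IDs next to the inhibitor genes were compared as well. On chromosome 9, the 6 consecutive IDs from Solyc09g084440 to Solyc09g084490 all had differences below 0, from -0.41 to -3.64. These are the inhibitor I genes and IDs of the family list above, not a further set of genes. The IDs that follow, Solyc09g089490 and Solyc09g089500, are also in that list. Their differences of -1.84 and -1.98 missed the threshold (adjusted p = 0.0768 and 0.0528, limma). Among the 9 tested IDs of that list, libraries did not overlap for these 2, lower in *plt3* *plt7*, against 3% of all genes. The gaps were narrow and at low values. The highest *plt3* *plt7* library was at 0.558 and 0.579 TPM, and the lowest *ej2* *j2* library at 0.627 and 0.624 TPM. On chromosome 3, Solyc03g020020, next to the inhibitor II genes, had a higher mean than any of them in both genotypes, at 367, 55.2, 281 and 451 TPM in *plt3* *plt7* and 469, 1034, 59.1 and 283 TPM in *ej2* *j2*. Its log2 difference was -0.41 (adjusted p = 0.911, limma), and its genotypes overlapped. Solyc03g020070, which lies among the inhibitor II IDs, was at 0 to 0.292 TPM in *plt3* *plt7* and 0 to 1.51 TPM in *ej2* *j2*. Solyc03g020090 and Solyc03g020100 were listed at 0 throughout. Neighbouring genes of such families can be near-identical copies. The rule for reads shared between copies is not given in the sources read, so the split of a class among its genes is less certain than its sum.

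**Figure D4:**
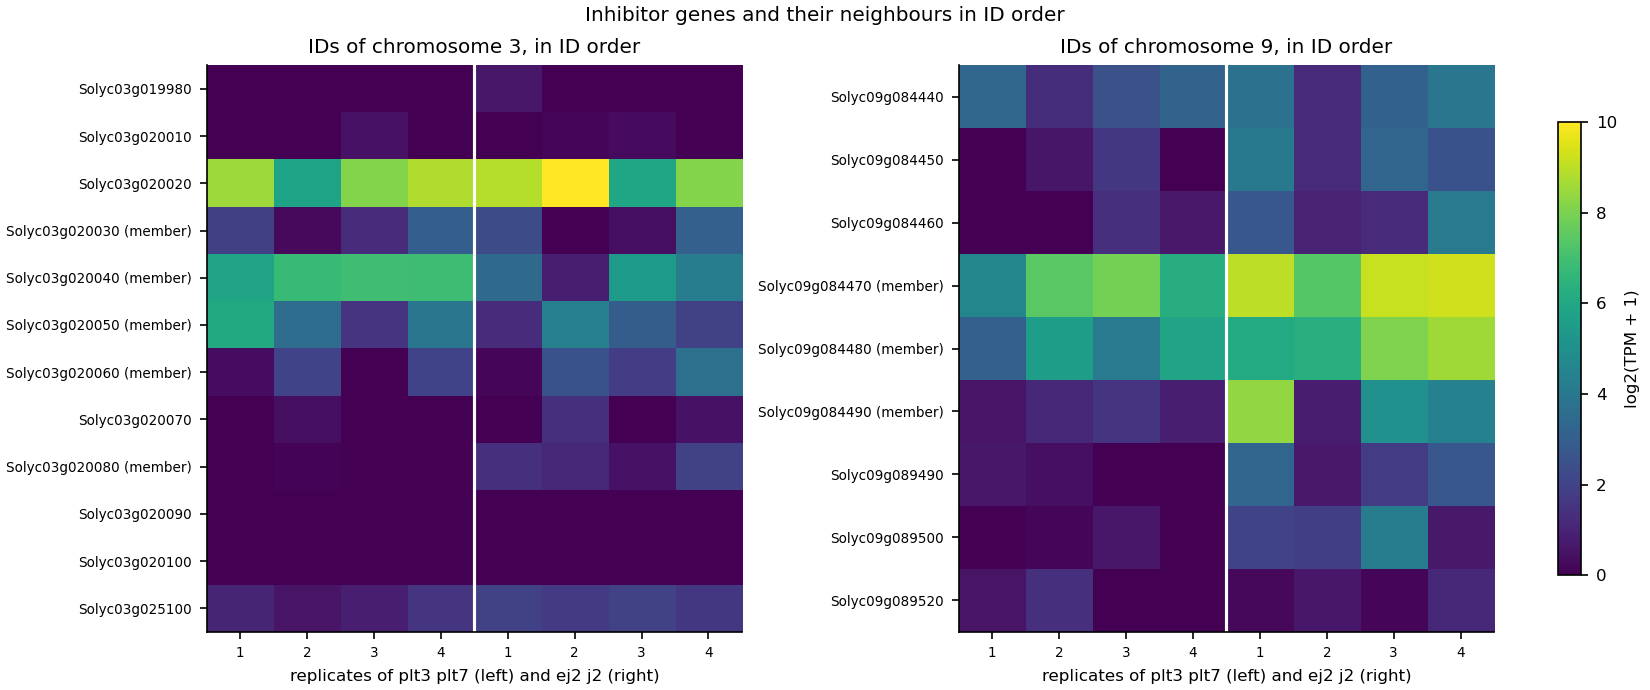
Heat map of log2(TPM + 1) for the inhibitor genes and the 3 IDs on either side in ID order, on chromosome 3 (left panel) and chromosome 9 (right panel), with *plt3* *plt7* replicates 1 to 4 left of the white line and *ej2* *j2* replicates 1 to 4 right of it; rows are consecutive IDs of the table, not to scale in distance. Solyc03g020040 is bright in *plt3* *plt7*, at 55.5 to 123 TPM, while Solyc09g084470 is brightest in *ej2* *j2* replicates 1, 3 and 4.

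Genes that make jasmonate, signal through it or accumulate after wounding were examined as 3 lists of IDs from general knowledge. Of the 7 jasmonate synthesis genes tested, none was called in either direction (median log2 difference -0.74, range -1.36 to 2.39). The libraries did not overlap for 1 of them, higher in *plt3* *plt7*, against 3.87% of all genes. Their summed level was 412 to 1394 TPM in *plt3* *plt7* and 471 to 3922 TPM in *ej2* *j2*. Of the 11 jasmonate signalling genes tested out of 14, none was called either (median -0.18, range -1.35 to 0.99). The list summed to 783 to 1944 TPM in *plt3* *plt7* and 995 to 1995 TPM in *ej2* *j2*. Libraries did not overlap for 1 signalling gene, lower in *plt3* *plt7*, against 3% of all genes. In the list of systemin, wound regulators and wound effectors, 1 of the 13 genes was called as higher and none as lower. Differences were below 0 for 9, and the median was -0.83. Libraries did not overlap for 2 genes with *plt3* *plt7* higher and 2 with it lower, against 3.87% and 3% of all genes. The gene that passed, Solyc12g013620, was at 146, 75.3, 101 and 62.3 TPM in *plt3* *plt7*, against 0.385, 10.2, 3.15 and 39.6 TPM in *ej2* *j2* (log2 difference 3.69, adjusted p = 0.0100, limma), so it moved in the direction of Solyc03g020040 and against inhibitor I. The range of differences within this list, -3.02 to 3.69, reached beyond that of the jasmonate lists at both ends. These lists were set with earlier results of the data known. Between *plt3* *plt7* libraries, the summed level of the synthesis list and of the wound list varied several fold, and that of the signalling list less. The part of wounding during dissection in the inhibitor values was not tested.

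**Figure D5:**
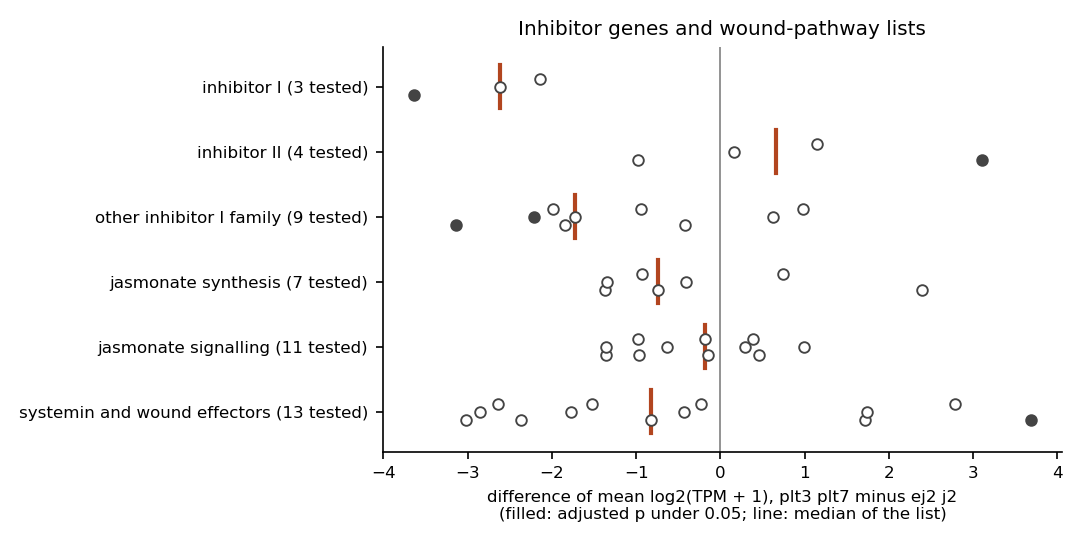
Difference of mean log2(TPM + 1), *plt3* *plt7* minus *ej2* *j2*, for each tested gene of the 2 inhibitor classes, the other inhibitor I family IDs and the 3 wound-pathway lists, with filled points for adjusted p under 0.05 and a line at each median. The medians are -2.62, 0.65, -1.73, -0.74, -0.18 and -0.83 from top to bottom.

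Floral markers differed between the genotypes in part. Of 12 floral organ identity MADS-box IDs, again chosen with earlier results of these data known, 7 were tested. Of these, 3 were called as lower in *plt3* *plt7*, against 0.962% of all genes, and none was called as higher. The 3 were Solyc01g093960 (log2 difference -3.89), Solyc02g089200 (-3.88) and Solyc05g015750, which was listed at 0 throughout *plt3* *plt7* and at 0.701 to 31.8 TPM in *ej2* *j2*. The abundant members of the list did not pass the test: Solyc05g056620 was at 243 to 718 TPM in *plt3* *plt7* and 22.4 to 526 TPM in *ej2* *j2* (log2 difference 1.87, adjusted p = 0.339, limma), and Solyc02g084630 and Solyc04g005320 had differences of -0.11 and -0.83. In all, 7 of the 12 were listed at 0 in all 4 *plt3* *plt7* libraries, against 1 in all 4 *ej2* *j2* libraries. Of those 7, Solyc01g093960 and Solyc05g015750 were called, and the other 5 had too low a mean to be tested. Among these 5, Solyc11g028020 was listed at 0 in *ej2* *j2* as well, and Solyc02g071730 reached at most 1.07 TPM there. Solyc04g081000, Solyc06g059970 and Solyc07g055920 were above 0 only in *ej2* *j2* replicate 2, at 0.0691, 2.22 and 0.443 TPM. The share of all genes at 0 throughout a genotype was not computed. The summed level of the list was 305 to 866 TPM in *plt3* *plt7* and 207 to 727 TPM in *ej2* *j2*, so the sum overlapped. The part of floral tissue content in the inhibitor values was not tested, and in this design floral tissue content and genotype cannot be told apart. Green tissue markers (4 of 6 tested) and reference genes for expression (4 of 5 tested) had none called in either direction, at a summed 431 to 1154 and 91.4 to 195 TPM in *plt3* *plt7* and 186 to 556 and 114 to 331 TPM in *ej2* *j2*. Libraries did not overlap for 2 green tissue genes, both lower in *plt3* *plt7*, against 3% of all genes.

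The genes whose pattern was most like each class were found by Pearson correlation of log2(TPM + 1) over the 8 libraries with the mean of the tested members, a description that carries the genotype difference with it. For inhibitor I, the closest was Solyc04g026110 (r = 0.98), at 9.55, 20.8, 17.0 and 28.4 TPM in *plt3* *plt7* and 125, 30.3, 104 and 107 TPM in *ej2* *j2*. It shared the low *ej2* *j2* replicate 2. Of the 6 closest genes, Solyc05g009890 (log2 difference -3.62, adjusted p = 0.00121, limma) and Solyc12g014570 (-2.56, adjusted p = 0.0353, limma) were called as lower, and the others, Solyc02g077730, Solyc10g080950 and Solyc12g015830, were not. Over all genes 0.962% were called as lower, but these 6 were picked by a pattern that holds the genotype difference, so the shares are not comparable. For inhibitor II the mean is not a shared pattern, since r between pairs of its tested members ran from -0.31 to 0.20. The gene closest to that mean was Solyc04g076560 (r = 0.98), at 57.3, 35.0, 10.7 and 78.4 TPM in *plt3* *plt7* and 6.22, 7.56, 18.7 and 55.2 TPM in *ej2* *j2*. Its lowest *plt3* *plt7* library was replicate 3, where Solyc03g020040 was highest, at 123 TPM. None of the 6 closest to the inhibitor II mean passed the test. The others were Solyc12g019470, Solyc01g109090, Solyc05g012200, Solyc04g071800 and Solyc03g121090.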

How the data were processed

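Reads were trimmed with Trimmomatic, aligned to tomato SL4.0 cDNA annotation with STAR 2.6.1 and converted to TPM in R by the authors, who deposited TPM for 34109 genes in 8 libraries (4 per genotype, each summing to 1000000). Strand and multi-mapping settings: not given in the sources used here. TPM keeps no depth.

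Here, log2(TPM + 1) of 19544 genes whose mean reached 1 TPM was fitted in R 4.3.3 with limma 3.58.1 (trend, two-sided, Benjamini-Hochberg over all genes tested, threshold 0.05). The 6 residual degrees of freedom per gene were joined to 365 prior ones, so standard errors come mostly from genes of like level. Figures were made in Python 3.11.15 with matplotlib 3.10.9. Exact permutation tests used each gene's own 8 values. The procedure was tested on simulated data. The members and lists were chosen with earlier results of these data known. Named genes were every member, up to 3 called genes per wound or inhibitor list, 3 neighbouring IDs per side and the 6 most alike genes per class. Of 82 further list IDs, 76 were in the table. Alternatives were the pseudocount, the filter, the scaling, library weights, a replicate block and leaving out each library. The labels give separate replicates, 4 per genotype, and all were used here. The paper's figure of *SEPALLATA* and *PLETHORA* gene expression in these mutants states fewer *plt3* *plt7* than *ej2* *j2* samples, without naming those left out. Permutation p-values rest on the spread of each gene between them, and limma p-values mostly on that of genes of like level.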

Additional observations from a re-analysis of the deposited data

Results flagged for a closer look

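Within genotypes, 2 of 20 groups of 4 libraries held a library far from the other 3. Chance sets apart about 5% of groups where values are normally distributed, and this rate need not hold for TPM that is not log-transformed. Solyc09g084490 in *ej2* *j2* replicate 1 was at 336 TPM, against 0.744 to 32.2 TPM in the other *ej2* *j2* libraries. Solyc03g020080 in *plt3* *plt7* replicate 2 was at 0.0644 TPM, with the other *plt3* *plt7* libraries listed at 0, so this gap is one between 0 and a value near it.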

How the results depend on the processing

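Depth is unknown, the list IDs rest on general knowledge, and 4 libraries per genotype with a median residual SD of 1.10 (log2) leave differences of several fold undetected. Over all alternatives the calls were 2 of 7 inhibitor genes, except for 0 without a filter on low values, 1 with library weights, 1 with a replicate block, and 0 to 2 over the omissions of 1 library. For Solyc03g020040 the log2 difference was 3.11 without a filter and 2.92 with library weights, and passed in neither (adjusted p = 0.203 and 0.0545, limma). Omissions gave 2.23 to 3.77. For Solyc09g084490 it was -3.64 without a filter, which did not pass (adjusted p = 0.280, limma; 2.17e-04 to 0.280 over its alternatives), and -4.93 to -2.39 over the omissions. Solyc03g020030 changed sign over the omissions (-0.32 to 0.71). The remaining genes kept their sign, and none of them was called under any alternative run. Solyc03g020030 and Solyc03g020060 were not tested with a minimum of 5 TPM, and Solyc03g020080 only without a filter. The number of genes called (359) was 11 without a filter, where limma had 5.84 prior degrees of freedom, 229 with a minimum of 5 TPM, and 138 to 446 over the omissions. The replicate numbers did not pair the libraries: same-numbered libraries had correlations of deviations from -0.03 to 0.01, and 2 of 8 libraries correlated best with their own number. With the replicate block, 303 genes and Solyc09g084490 were called, and Solyc03g020040 had a log2 difference of 3.11 (adjusted p = 0.0510, limma).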

Other observations

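Among the 4 *plt3* *plt7* libraries, Solyc03g020050 and Solyc09g084470 ran in opposite orders, a pattern noticed after the values were seen and not tested. Replicate 1 had the highest Solyc03g020050 (66.8 TPM) and the lowest Solyc09g084470 (23.3 TPM), and replicate 3 the lowest Solyc03g020050 (1.80 TPM) and the highest Solyc09g084470 (236 TPM). The *ej2* *j2* libraries did not show this order throughout: replicate 2 had the highest Solyc03g020050 (19.5 TPM) and the lowest Solyc09g084470 (162 TPM), but replicate 1 had the lowest Solyc03g020050 (1.38 TPM) and the next lowest Solyc09g084470 (508 TPM).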
